A study of Mus musculus with 6 samples.

Results

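The enzyme genes examined feed or use 2-oxoglutarate through glutamate, namely *Gls2*, *Glud1*, *Glul*, *Got1*, *Got2*, *Gpt2*, *Aldh18a1*, *Pycr1* and *Oat*. They were selected by gene name, and all 9 were found among the 54532 genes of the deposited mouse table. MLE12 cells, an immortalized mouse lung epithelial line from tumours of mice carrying simian virus large T antigen under a surfactant protein C promoter, are labelled with the strain C57BL/6J. The 3 control samples (Ctrl shRNA) were infected with a lentivirus labelled as an empty vector at a multiplicity of infection (MOI) of 50. The 3 knockdown samples were infected at the same time with 2 lentiviruses, one carrying Idh3α shRNA and the other Slc25a1 shRNA, at an MOI of 50 each. Virus dose therefore differed along with the target and cannot be told apart from it. Virus was washed off at 16 h, and total RNA was sequenced following a further 80 h of culture. Idh3α is a subunit of the mitochondrial enzyme that makes 2-oxoglutarate from isocitrate, and Slc25a1 carries citrate out of mitochondria. The comparison asked how the mRNAs of enzymes that reach 2-oxoglutarate by another route, from glutamine and glutamate, stood in the same cells.

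Glutamine enters mitochondria, where glutaminases release ammonia and leave glutamate. Glutamate becomes 2-oxoglutarate either through glutamate dehydrogenase or through transaminases, which pass the amino group on to make aspartate or alanine. Glutamate is also the start of proline synthesis, and ornithine can be turned into the same intermediate. Glutamine synthetase runs the opposite way and makes glutamine from glutamate and ammonia. Proliferating cells are known to draw on these reactions to refill the tricarboxylic acid cycle.

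Total counts ran from 27273502 to 28535653 over the 6 libraries. Ctrl shRNA replicate 2 stood apart, with 16681 genes detected against 19902 to 23147 in the other libraries, and 27.2% of its counts on its 100 most abundant genes against 12.5% to 12.9%. Mitochondrially encoded genes took 6.49% of its counts against 1.57% to 1.80%. Results on the enzymes are therefore given with and without this library. The targeted mRNAs were lower in every knockdown sample, with log2 fold changes of -0.85 for *Idh3a* and -0.62 for *Slc25a1* (adjusted p = 0.254 and 0.104 from edgeR). Leaving out Ctrl shRNA replicate 2 gave -0.60 and -0.66 (adjusted p = 0.0142 and 0.00649 from edgeR). Of 8 alveolar type 2 markers, 3 had a mean of at least 1 FPKM (fragments per kilobase of gene and per library size), *Nkx2-1*, *Abca3* and *Sftpc*, and *Sftpd* had 0 counts. Summed, the 8 markers stood at 182 to 219 FPKM in the controls and at 141 to 158 FPKM in the knockdown samples. *Nkx2-1* and *Sftpc* carried this sum, while *Abca3* was at 12.5 to 16.2 FPKM over the 6 libraries, with the knockdown samples inside the range of the controls. Of 5 epithelial markers 4 reached that mean, and the list summed to 538 to 612.5 FPKM in the controls and 607.6 to 665.8 FPKM in the knockdown samples. *Krt19* carried this sum, at 375.8 to 456.5 FPKM in the controls and 453.9 to 502.6 FPKM in the knockdown samples. Both *Krt19* and *Krt8* overlapped between the groups. *Cdh1*, at 14.85 to 16.47 FPKM in the controls, was higher in every knockdown sample, at 16.59 to 18.38 FPKM. *Epcam*, at 1.60 to 1.98 FPKM in the controls, was lower in every knockdown sample, at 1.18 to 1.57 FPKM. Fibroblast markers summed to 59.1 to 209 FPKM in the controls, the highest being replicate 2, and to 53.9 to 58.5 FPKM in the knockdown samples, mostly from *Dcn*. The 6 leukocyte markers summed to 1.34 to 1.58 FPKM in the controls and, without overlap, to 1.89 to 2.21 FPKM in the knockdown samples. Nearly all of this was *Cd68*, at 1.32 to 1.52 and 1.87 to 2.18 FPKM, while *Ptprc*, *Adgre1* and *Itgam* had 0 counts. The endothelial list summed to at most 0.142 FPKM. The part of these markers in the results on the enzymes was not tested. As the RNA came from whole cultures, a change in the mix of cells and a change in RNA per cell cannot be told apart.

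With all 6 samples, none of the 9 enzyme genes passed an adjusted p of 0.05 in edgeR's quasi-likelihood test, in either direction. The background was low in this comparison, since 0.0588% of the 15307 genes tested passed as higher and 0.00653% as lower. At an unadjusted p under 0.05, *Got1* and *Got2* were higher and *Gpt2* was lower, against 7.47% and 6.65% of all genes. DESeq2 with all samples also called 0 of the 9. Of the 12032 genes to which it gave an adjusted p, 2.2% were called higher and 1.6% lower. The median log2 fold change of the 9 enzymes in edgeR was -0.01, as was that of all genes tested. Groups did not overlap for 2 enzymes above the controls and 1 below, against 14.7% and 10.7% of all genes. Without Ctrl shRNA replicate 2, *Gpt2* alone passed, in the lower direction, where 1.11% of all genes passed as higher and 0.675% as lower. In that fit 2 enzymes were higher and 3 lower at an unadjusted p under 0.05, where the shares of all genes were 9.54% and 10.3%. DESeq2 on the same 5 samples called 0 enzymes higher and 2 lower, *Gpt2* and *Pycr1*. The shares were 4.74% and 3.35% of the 11445 genes to which it gave an adjusted p. The smaller set of samples left 3 of the enzymes above both remaining controls in every knockdown sample, and 4 below, against 20.4% and 17.5% of all genes. Weighting the libraries by quality in limma put *Got1* and *Got2* past the threshold as higher and *Gpt2* and *Pycr1* as lower, where 8.67% of all genes were higher and 6.34% were lower. The differences were modest, with fold changes from 0.786 to 1.23 over both edgeR fits.

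**Figure D1:**
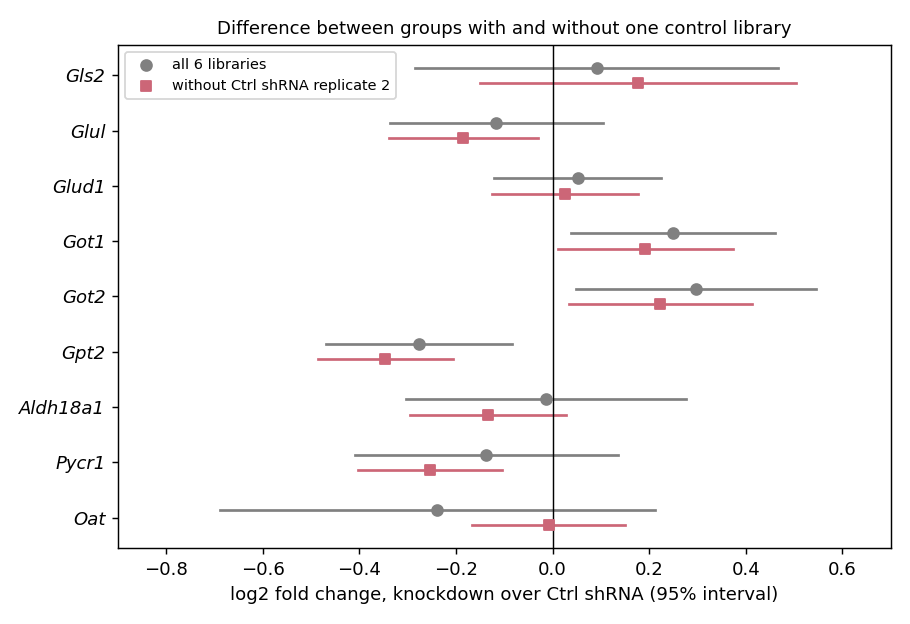
Log2 fold change (x axis, knockdown over Ctrl shRNA) of each of the 9 enzyme genes (y axis) with its 95% interval from edgeR. Gray circles are the fit on all 6 libraries and red squares the fit without Ctrl shRNA replicate 2. *Gpt2* lies below 0 and *Got1* and *Got2* above 0 in both fits, and the value of *Oat* moves from -0.24 to -0.01.

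Levels per gene length were compared as deposited FPKM. *Glul* and *Oat* were the most abundant of the enzymes, with 81.7 to 98.0 and 76.5 to 122 FPKM over the 6 libraries. *Glud1* (49.3 to 54.8 FPKM) and *Got2* (40.8 to 59.6 FPKM) came next, followed by *Aldh18a1* (28.9 to 37.9 FPKM) and *Got1* (21.4 to 29.4 FPKM). *Pycr1* (17.4 to 22.6 FPKM), *Gpt2* (15.9 to 20.6 FPKM) and *Gls2* (2.03 to 2.67 FPKM) were lowest. Neighbours in this order kept it in every library except for 3 pairs. *Glul* was above *Oat* in 5 of 6 libraries, *Pycr1* was above *Gpt2* in 5 of 6, and *Glud1* was above *Got2* in 3 of 6. The exception to the *Glul* and *Pycr1* orders was Ctrl shRNA replicate 2, and both orders held in the other 5 libraries. *Glud1* was above *Got2* in all 3 controls, at 51.2, 49.3 and 52.2 FPKM against 49.8, 40.8 and 45.4 FPKM. It was below *Got2* in all 3 knockdown samples, at 52.8, 54.8 and 50.9 FPKM against 55.5, 59.6 and 52.0 FPKM.

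*Glul* encodes glutamine synthetase and lies on chromosome 1 of GRCm38 from 153899944 to 153909723. Levels of single genes between samples are given as CPM, a gene's counts scaled by its library's TMM-adjusted depth. *Glul* had 324, 279 and 310 CPM in controls 1, 2 and 3, and 292, 271 and 279 CPM in the knockdown replicates. Knockdown samples thus overlapped only with Ctrl shRNA replicate 2. The mean was 304 ± 23.0 CPM in the controls and 281 ± 10.4 CPM after knockdown (SD, n = 3 each), or -0.12 on the log2 scale (edgeR, standard error 0.09, adjusted p = 0.522). Without that control the value was -0.19 (standard error 0.07, adjusted p = 0.189 from edgeR), with a 95% interval from -0.34 to -0.03. A processed pseudogene, *Glns-ps1*, matches 1126 bases of the *Glul* transcript at 96.8% identity and had 262 counts in all against 49589 for *Glul*.

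*Gls2* encodes the liver-type glutaminase, on chromosome 10 from 128194457 to 128210004. The controls gave 7.24, 8.60 and 7.01 CPM, against 7.63, 9.26 and 7.42 CPM for the knockdown samples. The groups overlapped, and the highest control was replicate 2. Its log2 fold change was 0.09 (standard error 0.16, adjusted p = 0.783 from edgeR), and 0.18 without replicate 2 (standard error 0.14, adjusted p = 0.526 from edgeR). *Gls2* shares 97 exonic bases with *Spryd4* on the opposite strand, which had 1442 counts in all against 1323 for *Gls2*, so its value is uncertain where counting ignored strand.

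*Glud1*, on chromosome 14 from 34310727 to 34345265, encodes the mitochondrial glutamate dehydrogenase that converts glutamate directly to 2-oxoglutarate. Among the 9 enzymes it varied least, with 214, 209 and 218 CPM in the controls and 221, 230 and 214 CPM after knockdown. The groups overlapped, and the fitted log2 difference was 0.05 (edgeR, standard error 0.07, adjusted p = 0.728). When Ctrl shRNA replicate 2 was left out it was 0.03, with a 95% interval of -0.13 to 0.18, against -0.12 to 0.23 with all samples. The pseudogene *Glud-ps*, which matches 656 bases at 97.6% identity, had 91 counts in all.

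**Figure D2:**
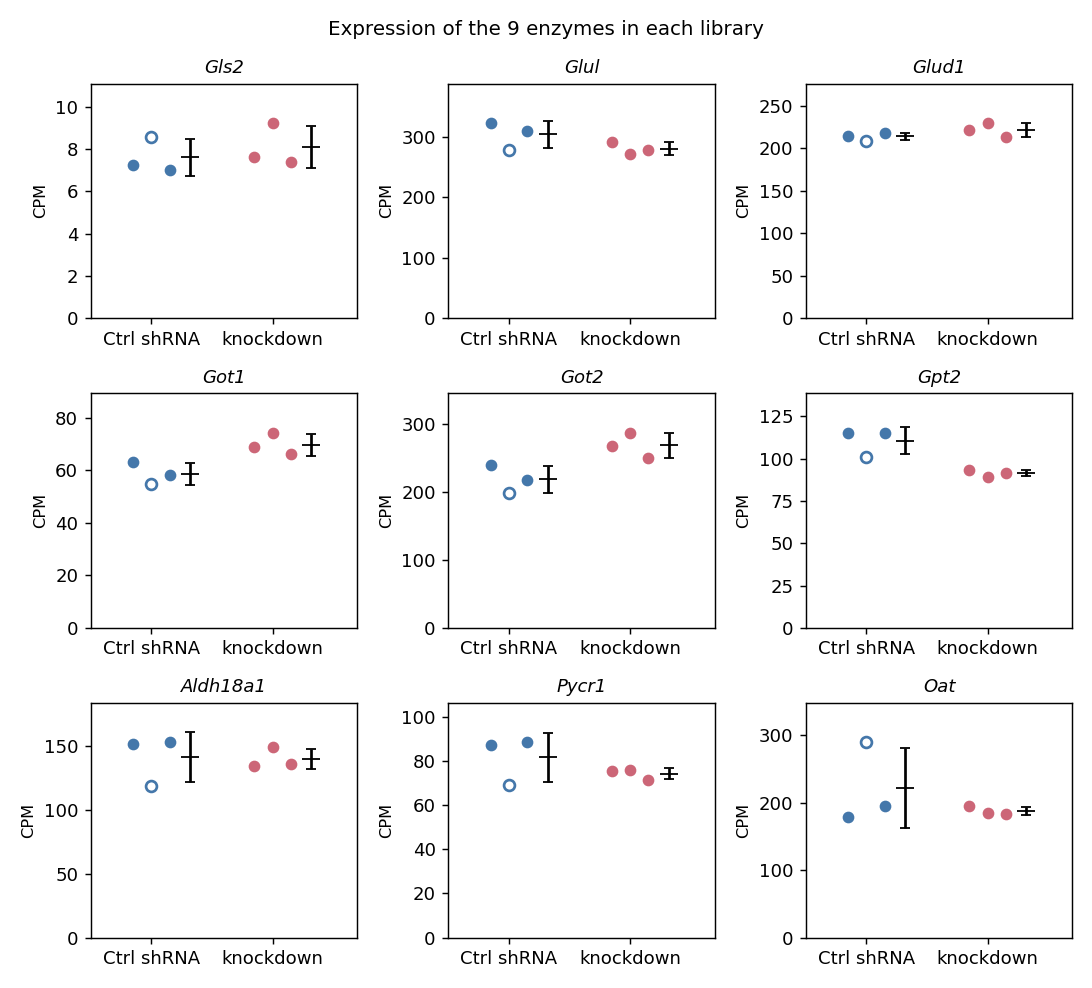
CPM (y axis, from 0) of the 9 enzyme genes in each library of the Ctrl shRNA group (blue, replicate 2 as an open circle) and the knockdown group (red), with the mean and SD of all 3 samples in black beside the points. All 3 knockdown samples lie above the controls for *Got1* and *Got2* and below them for *Gpt2*, and the open circle for *Oat*, at 290 CPM, lies above every other library.

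Both aspartate transaminase genes were higher in every knockdown sample. *Got1*, on chromosome 19 from 43499752 to 43524605, encodes the cytosolic enzyme, which exchanges amino groups between glutamate and oxaloacetate. Control levels were 63.2, 54.8 and 58.2 CPM, and knockdown levels 68.9, 74.5 and 66.1 CPM. The lowest knockdown sample was above the highest control. The means were 58.7 ± 4.23 and 69.8 ± 4.25 CPM (SD, n = 3 each), a 1.19-fold difference (log2 fold change 0.25, standard error 0.09, adjusted p = 0.339 from edgeR). *Got2*, on chromosome 8 from 95864134 to 95888547, encodes the mitochondrial enzyme of the malate-aspartate shuttle. Its level was 239, 198 and 217 CPM in the controls and 267, 287 and 250 CPM after knockdown, again without overlap. The means were 218 ± 20.3 and 268 ± 18.6 CPM (SD, n = 3 each), a 1.23-fold difference (log2 fold change 0.30, standard error 0.10, adjusted p = 0.339 from edgeR). With only 2 controls the log2 fold changes were 0.19 for *Got1* and 0.22 for *Got2* (adjusted p = 0.231 and 0.194 from edgeR). A two-sided exact permutation test on each gene gave p = 0.1, and groups of 3 cannot give a smaller one. *Got1* stood at 0.502 to 0.525 times *Got2* per length in the controls and at 0.490 to 0.503 times after knockdown (difference of the log2 ratio -0.05, same exact test, p = 0.2). Reads of *Got2* could also fit the pseudogene *Got2-ps1*, which matches 1293 bases at 99.1% identity and had 184 counts in all.

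*Gpt2* encodes the mitochondrial alanine transaminase, which makes alanine and 2-oxoglutarate from pyruvate and glutamate, and lies on chromosome 8 from 85492576 to 85527560. It had 115, 101 and 115 CPM in the controls and 93.2, 89.4 and 91.5 CPM after knockdown. Every knockdown sample was below every control. Means were 111 ± 8.19 and 91.3 ± 1.89 CPM (SD, n = 3 each), a log2 difference of -0.28 (edgeR, standard error 0.08, adjusted p = 0.312). When Ctrl shRNA replicate 2 was left out, *Gpt2* fell by 0.35 on the log2 scale (standard error 0.06, adjusted p = 0.0336 from edgeR), to 0.786 times the control level, with a 95% interval from -0.49 to -0.21. DESeq2 on the same 5 samples gave an adjusted p of 0.000172. The cytosolic counterpart *Gpt* had a log2 fold change of 0.13 (adjusted p = 0.570 from edgeR) and 0.03 without that control (adjusted p = 0.881).

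The 250 bases before the start are shown for *Gpt2*, *Got1* and *Got2*, the enzymes whose groups did not overlap, and for *Pycr1* and *Aldh18a1*, the enzymes of the proline route described next, which held motif matches. They were taken from RefSeq on GRCm38.p6, in which 8 of the 9 genes matched. The RefSeq starts used for *Got2* and *Pycr1* lie inside the gene spans given here, so part of each of these windows does too. Each reads 5′ to 3′ on the strand of the gene. Capitals mark a match on either strand to the C/EBP-ATF composite element (TGATGNAA), the E-box (CACGTG), the antioxidant response element (TGACNNNGC) or the cyclic AMP response element (TGACGTCA). *Gpt2* is chr8:85492326-85492575 (plus strand), *Got1* chr19:43524606-43524855 (minus), *Got2* chr8:95888402-95888651 (minus), *Pycr1* chr11:120643749-120643998 (minus) and *Aldh18a1* chr19:40588464-40588713 (minus).
Gpt2: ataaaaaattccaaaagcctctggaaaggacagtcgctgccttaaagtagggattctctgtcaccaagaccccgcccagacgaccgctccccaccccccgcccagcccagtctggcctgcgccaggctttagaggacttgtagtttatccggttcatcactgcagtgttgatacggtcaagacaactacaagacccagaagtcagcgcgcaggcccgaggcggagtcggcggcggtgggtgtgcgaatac
Got1: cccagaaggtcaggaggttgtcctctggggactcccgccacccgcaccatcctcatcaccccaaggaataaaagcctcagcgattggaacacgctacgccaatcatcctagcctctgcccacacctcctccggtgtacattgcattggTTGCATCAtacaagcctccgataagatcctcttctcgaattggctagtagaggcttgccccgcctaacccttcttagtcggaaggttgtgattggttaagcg
Got2: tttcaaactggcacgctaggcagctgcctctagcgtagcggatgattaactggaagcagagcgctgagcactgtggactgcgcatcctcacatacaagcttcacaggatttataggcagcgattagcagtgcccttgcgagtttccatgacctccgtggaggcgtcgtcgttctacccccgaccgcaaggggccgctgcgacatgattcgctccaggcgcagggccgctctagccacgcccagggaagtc
Pycr1: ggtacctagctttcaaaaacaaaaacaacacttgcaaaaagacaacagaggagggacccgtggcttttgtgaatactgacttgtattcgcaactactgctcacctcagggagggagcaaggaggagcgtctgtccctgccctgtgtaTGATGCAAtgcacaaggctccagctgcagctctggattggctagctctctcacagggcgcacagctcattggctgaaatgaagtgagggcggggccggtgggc
Aldh18a1: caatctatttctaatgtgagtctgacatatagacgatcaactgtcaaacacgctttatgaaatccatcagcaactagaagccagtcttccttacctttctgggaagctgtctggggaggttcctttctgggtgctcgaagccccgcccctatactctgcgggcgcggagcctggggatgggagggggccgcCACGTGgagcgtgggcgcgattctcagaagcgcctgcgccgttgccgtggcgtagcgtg
*Pycr1* and *Got1* held the same C/EBP-ATF letters, TGATGCAA. In *Pycr1* the match began 103 bases before the start. In *Got1* these letters lie on the strand opposite the gene, so they are printed as TTGCATCA, beginning 102 bases before the start. The log2 fold changes of these genes were -0.14 for *Pycr1* and 0.25 for *Got1* with all samples, neither past the threshold in edgeR. Of the 8 matched windows 2 held this motif, against 3.45% of 32851 annotated windows of this length. *Aldh18a1* held an E-box 59 bases before its start, a motif in 6.02% of all windows. No match to the 4 motifs was present in the windows of *Gpt2* and *Got2*.

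Among the proline and ornithine enzymes, *Aldh18a1* encodes the synthase of the first steps from glutamate toward proline. It lies on chromosome 19 from 40550257 to 40588463. Its level was 152, 119 and 153 CPM in the controls and 134, 149 and 136 CPM after knockdown. Only Ctrl shRNA replicate 2 was below the knockdown samples. The log2 fold change was -0.01 with all samples (standard error 0.12, adjusted p = 0.963 from edgeR) and -0.13 without that library (standard error 0.07, adjusted p = 0.329 from edgeR).

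*Pycr1*, on chromosome 11 from 120635712 to 120643769, encodes the mitochondrial reductase of the last step to proline. Its control levels were 87.3, 68.9 and 88.3 CPM, and its knockdown levels 75.5, 75.8 and 71.1 CPM. Replicate 2 was the lowest of all libraries, and the other controls were above every knockdown sample. With all samples the log2 fold change was -0.14 (standard error 0.11, adjusted p = 0.539 from edgeR), and without replicate 2 it was -0.25 (standard error 0.07, 95% interval -0.40 to -0.11, adjusted p = 0.0992 from edgeR). DESeq2 on those 5 samples passed the threshold (adjusted p = 0.0255).

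*Oat*, on chromosome 7 from 132557478 to 132576398, encodes the ornithine aminotransferase that links ornithine to the same intermediate as *Aldh18a1*. It had 179, 290 and 196 CPM in the controls and 195, 185 and 184 CPM after knockdown. Of the 9 enzymes it was the one most changed by leaving out Ctrl shRNA replicate 2, where it stood 0.63 on the log2 scale above the mean of the other controls. The log2 fold change went from -0.24 (standard error 0.19, adjusted p = 0.521 from edgeR) to -0.01 (standard error 0.07, adjusted p = 0.964 from edgeR, 95% interval -0.17 to 0.15). *Aldh18a1* relative to *Oat* per length was 0.491, 0.237 and 0.453 in the controls and 0.399, 0.469 and 0.430 after knockdown (exact permutation test, p = 0.9). The gene span of *Oat* lies within that of *Fgfr2* on the same strand, with 0 shared exonic bases. Over the 9 enzymes, Ctrl shRNA replicate 2 was the lowest control for 7, against 46.6% of all genes tested.

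**Figure D3:**
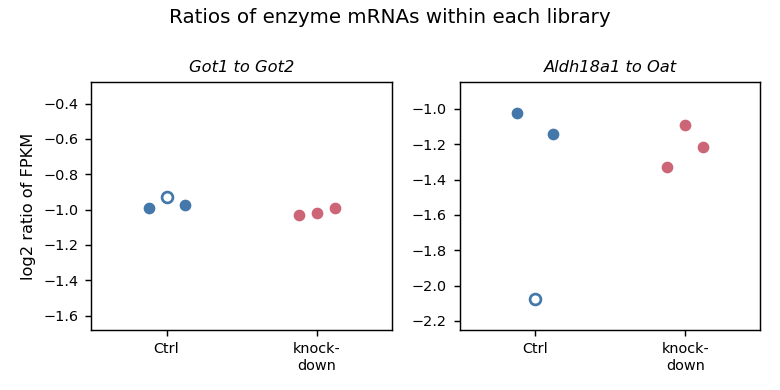
Log2 ratio of deposited FPKM (y axis, the same span of 1.4 in each panel) of *Got1* to *Got2* and of *Aldh18a1* to *Oat* within each library, in Ctrl shRNA (blue, replicate 2 as an open circle) and knockdown samples (red). The ratio of *Got1* to *Got2* runs from -1.03 to -0.93 over all libraries, and that of *Aldh18a1* to *Oat* is lowest in Ctrl shRNA replicate 2, at -2.07.

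The neighbouring reactions were represented by 64 other genes of glutamine and glutamate metabolism, of which 49 were tested. With all 6 samples 0 of them passed an adjusted p of 0.05 in edgeR, where the shares of all genes were 0.0588% higher and 0.00653% lower. At an unadjusted p under 0.05 there were 6 higher and 3 lower, against 7.47% and 6.65% of all genes. DESeq2 called 4 higher and 3 lower, against 2.2% and 1.6% of the 12032 genes to which it gave an adjusted p. Some of the 49, such as *Prodh* and *Slc1a3*, had no adjusted p in DESeq2. Once Ctrl shRNA replicate 2 was left out, edgeR called 3 higher and 2 lower, against 1.11% and 0.675% of all genes, and the median log2 fold change of the 49 was 0.07 against -0.02 for all genes in that fit.

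The genes called higher in edgeR without that library were *Cad*, *Ctps* and *Gclm*, and DESeq2 with all samples added *Gclc*. *Cad*, which uses the amide of glutamine to start pyrimidine synthesis, rose by 0.55 without Ctrl shRNA replicate 2 (standard error 0.08, adjusted p = 0.0209 from edgeR), and had 0.63 with all samples (adjusted p = 0.174). The controls had 114, 91.0 and 97.8 CPM and the knockdown samples 153, 163 and 152 CPM. *Ctps*, which makes CTP with glutamine as the nitrogen donor, rose by 0.36 (standard error 0.06, adjusted p = 0.0358 from edgeR, same 5 samples), and had 0.37 with all 6 (adjusted p = 0.179). Its level was 177, 177 and 181 CPM in the controls, and 233, 234 and 224 CPM after knockdown. *Gclm*, the modifier subunit of the enzyme that joins glutamate to cysteine, rose by 0.48 (standard error 0.07, adjusted p = 0.0155 from edgeR, same samples), and had 0.45 with all 6 (adjusted p = 0.174). *Gclc*, the catalytic subunit, had a value of 0.27 in that fit (adjusted p = 0.0804) and 0.31 in DESeq2 with all samples (adjusted p = 0.00435). In none of these genes did the groups overlap, and 14.7% of all genes also had every knockdown sample above every control. These genes were named for passing a test on the same samples, so the lack of overlap adds no support.

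The genes called lower were *Asns* and *Slc7a5*, and DESeq2 with all samples added *Psat1*. *Asns*, which takes the amide of glutamine to make asparagine, fell by 0.49 on the log2 scale without Ctrl shRNA replicate 2 (standard error 0.07, adjusted p = 0.0142 from edgeR), against -0.74 with all samples (adjusted p = 0.288). Its level was 158, 254 and 164 CPM in the controls and 112, 120 and 113 CPM after knockdown, so replicate 2 was the highest. *Slc7a5*, the large neutral amino acid transporter that exchanges glutamine, fell by 0.53 on the log2 scale (standard error 0.07, adjusted p = 0.0155 from edgeR, same samples), from 180, 163 and 168 CPM to 121, 129 and 115 CPM. With all samples *Slc7a5* had -0.49 (adjusted p = 0.178 from edgeR). *Psat1*, a transaminase of serine synthesis that also turns glutamate into 2-oxoglutarate, had 352, 375 and 359 CPM in the controls and 295, 294 and 286 CPM after knockdown. The log2 fold change of *Psat1* was -0.31 with all samples (adjusted p = 0.273 from edgeR, 0.000913 from DESeq2) and -0.29 without Ctrl shRNA replicate 2 (adjusted p = 0.0620 from edgeR). *Atf4*, which encodes a transcription factor known to act on amino acid genes such as *Asns* and *Psat1*, had a log2 fold change of -0.16 (adjusted p = 0.421 from edgeR) and -0.09 without that library (adjusted p = 0.505).

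**Figure D4:**
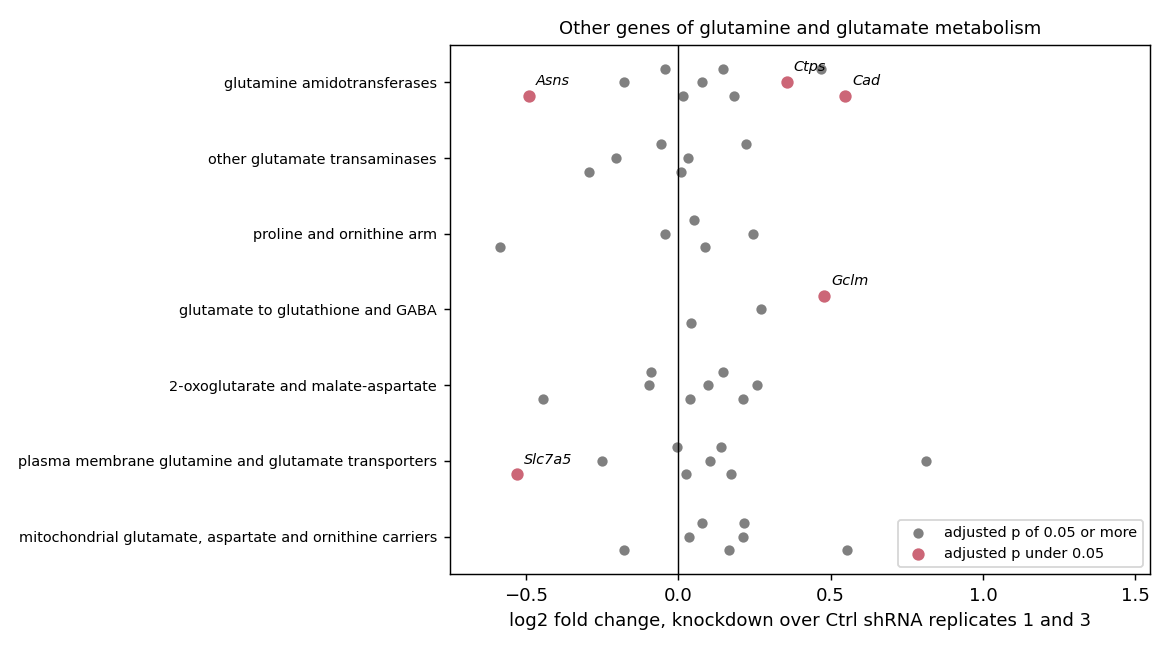
Log2 fold change without Ctrl shRNA replicate 2 (x axis) of tested genes of neighbouring reactions, grouped by reaction (y axis, points offset within a group for display). The 5 genes with an adjusted p under 0.05 from edgeR are red and named, with *Cad*, *Ctps* and *Gclm* higher and *Asns* and *Slc7a5* lower.

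No other gene of the 49 passed in edgeR or DESeq2 with all samples, or in edgeR without Ctrl shRNA replicate 2. *Mdh1*, the cytosolic malate dehydrogenase that works with *Got1*, had the largest difference among the 2-oxoglutarate and malate-aspartate genes, at -1.20 (adjusted p = 0.383 from edgeR). It rested on Ctrl shRNA replicate 2, with 695 CPM against 140 to 162 CPM in the other libraries, and was -0.09 without it (adjusted p = 0.504). *Slc1a3*, a glutamate importer and the largest difference among plasma membrane transporters, also rested on that library, with 0.101 CPM there against 1.74 to 2.31 CPM elsewhere. Its log2 fold change was 0.70 (adjusted p = 0.651 from edgeR), and 0.17 without the library (adjusted p = 0.703). *Prodh*, which breaks down proline, had 0.42 in the proline and ornithine arm (adjusted p = 0.471 from edgeR) and 0.25 without it (adjusted p = 0.621). *Slc25a18*, a mitochondrial glutamate carrier, had 0.55 in both fits (adjusted p = 0.357 and 0.285 from edgeR). Both genes were low, with 22 to 65 counts per library for *Prodh* and 23 to 56 for *Slc25a18*.

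*Gpt2* had the smallest p of the 9 enzymes in the edgeR fit on all samples. Among 9590 genes with a mean of at least 10 CPM, those whose log2 CPM followed *Gpt2* most closely over the 6 libraries were *Podxl2* (Pearson's r = 0.996), *Rab11fip5* (r = 0.994) and *Parn* (r = 0.992). These are descriptions over 6 samples that share their library scaling and the 2 groups. Their log2 fold changes were -0.65, -0.47 and -0.10 with all samples, and -0.78, -0.58 and -0.14 without Ctrl shRNA replicate 2.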

How the data were processed

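RNA-seq of MLE12 cells, 3 Ctrl shRNA samples and 3 with Idh3α shRNA and Slc25a1 shRNA, was analysed. The authors deposited whole-number counts per gene for 54532 genes and FPKM values, which equal the counts per kilobase over a library size of 0.716 to 1.08 times the total. The submitters' processing notes name HISAT2 2.0.5, StringTie 1.3.3b, featureCounts 1.5.0-p3 and mm10, and whether counting used strand is not given in the sources used here. Of the identifiers, 54409 were in GENCODE M21 (GRCm38), 98.3% with identical positions. The 3 numbers per group come from the labels, which do not say that the samples were separate cultures, so p-values measure the spread between these samples.

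Counts were filtered with filterByExpr, scaled with TMM and tested with the quasi-likelihood test of edgeR 4.0.16 (R 4.3.3), two-sided, with p-values adjusted by Benjamini-Hochberg across every tested gene and a threshold of 0.05. Standard errors are the log2 fold change over the square root of F. DESeq2 1.42.0, limma 3.58.1 on log2(FPKM + 1) or log2(FPKM + 0.1), limma with sample quality weights, other scalings and filters, a replicate block and each library left out were alternatives. Ratios were compared by exact permutation (scipy 1.17.1). Near-identical copies were sought with blastn against GENCODE transcripts. The code was tested on simulated data. The enzymes and gene lists were chosen with earlier results of these data known, and the promoter motifs and the windows printed were chosen after values were seen. Named genes outside the 9 were the targeted *Idh3a* and *Slc25a1*, those of the list past the threshold in edgeR with all samples, edgeR without Ctrl shRNA replicate 2 or DESeq2, the largest difference in each reaction group at a mean of at least 1 CPM, *Atf4*, and the 3 genes most like the enzyme of smallest p. *Gpt*, *Spryd4*, *Fgfr2*, the pseudogenes and the single genes named from the cell type marker lists are outside that rule and were added after values were seen. Every column of sample values was used. Some genes named by the rule, and the ratios that need them, are not reported here.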

Additional observations from a re-analysis of the deposited data

How the results depend on the processing

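The direction of *Got1*, *Got2*, *Glud1*, *Gpt2* and *Oat* was the same in all 18 fits run. Library size as the only scaling moved the median log2 fold change of all genes from -0.01 to 0.16 and that of the 9 enzymes to 0.13, and the values of *Glul*, *Aldh18a1* and *Pycr1* then became 0.042, 0.13 and 0.0092, all below that of all genes, with 0 enzymes lower in all knockdown samples, while over all genes 1 was higher and 0 lower. *Gls2* was -0.013 without knockdown replicate 2 and ran up to 0.18, and *Aldh18a1* ran from -0.13 to 0.046 over the fits that each left out 1 library. With all 6 samples, enzymes past the threshold numbered 0 in both directions, except with quality weights. Those weights gave 2 higher and 2 lower, and an unadjusted p under 0.05 gave 2 and 1. Fits without 1 library gave 0 higher and 0 to 2 lower, where only those without Ctrl shRNA replicate 2 gave any. For the 64 other genes the counts were 5 higher and 4 lower with quality weights, 6 and 3 unadjusted, and 4 and 3 with DESeq2. Without 1 library they were 0 to 4 higher and 0 to 3 lower. The number of enzymes lower in all knockdown samples was 1, and 1 to 4 without 1 library, with 2 without Ctrl shRNA replicate 1 and 4 without replicate 2. Over all genes 9 were higher and 1 lower. No filter, protein-coding genes only, and limma with either FPKM pseudocount each gave 3 lower, DESeq2 265 higher and 192 lower, quality weights 1327 and 971, and an unadjusted p under 0.05 gave 1144 and 1018. Without 1 library the counts ran from 0 to 543 higher and 0 to 383 lower, the highest being DESeq2 without Ctrl shRNA replicate 2, while edgeR without that library gave 175 and 106, edgeR without Ctrl shRNA replicate 1 gave 1 and 0, and without any other library 0 and 0. Same-numbered samples did not deviate together (correlations of -0.25, -0.19 and 0.01 across genes, with 0 of 6 samples closest to their own number), and the replicate block gave 0 higher and 0 lower genes over all genes, and 0 enzymes. Of the ratios, *Aldh18a1* to *Oat* went from 0.20 to -0.13 without Ctrl shRNA replicate 2 (exact permutation test, p = 0.4). The causes were not tested. The common biological coefficient of variation in edgeR, a summary of the spread between replicates, was 0.263 with all samples and 0.102 without Ctrl shRNA replicate 2. Standard errors among the 9 were largest for *Oat* with all samples (0.19) and for *Gls2* without that library (0.14).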
